A study of Drosophila simulans and Drosophila sechellia and Drosophila simulans x Drosophila sechellia with 72 samples.

Results

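The comparison described here concerns hybrid adults of Drosophila simulans and Drosophila sechellia whose previous generation fed on medium with octanoic acid. It takes 12 of the 72 libraries of the series, chosen by their labels alone. In the OS group the previous generation had octanoic acid medium and the flies themselves standard medium, and in the OO group both generations had octanoic acid medium. In the SS group both generations had standard medium, and in the SO group the previous generation had standard medium and the flies octanoic acid medium. Each group has 3 biological replicates, and since nothing says how their cultures were kept apart, p-values measure the spread between these libraries. Thus 6 libraries with octanoic acid in the previous generation (OS and OO) are set against 6 without it (SS and SO). One library was made from polyA RNA of the homogenate of 10 whole adult females, reared at 20 °C in a daily cycle of 16 h light and 8 h darkness. The labels give neither the direction of the cross nor the dose of octanoic acid, and do not say which parent had been on which medium. A hybrid library has 2 values per gene, 1 for the D. simulans allele and 1 for the D. sechellia allele, and its expression is their sum in FPKM (fragments per kilobase of transcript, scaled to the mapped fragments of a library).

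Octanoic acid is a fatty acid of ripe noni fruit that is toxic to most fruit flies. D. sechellia lives on this fruit and resists the acid, while its close relative D. simulans does not. What a parent eats can reach the offspring through the egg, for example as maternal RNA, stored nutrients or chromatin state, and the groups here let that be asked of adult offspring with their own food held equal. In a whole fly, fewer cells of a type and less RNA per cell cannot be told apart.

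The 12 libraries were alike in summed FPKM, which the scaling of FPKM largely fixes, but not in relative depth. Summed FPKM was 958731 to 1169425 in OS and OO libraries and 1018666 to 1121475 in SS and SO libraries, and the D. simulans column held 11.6% to 20.1% of it in OS and OO and 11.3% to 18.7% in SS and SO. The sum therefore follows mainly the D. sechellia column. FPKM hides the number of reads, but the steps between low values gave relative depths of 0.676 to 1.33 in OS and OO and 0.752 to 1.61 in SS and SO for that column, OO replicate 2 being the shallowest. Neither allele was detected for 1918 to 2211 of the 7836 genes in OS and OO libraries and for 1900 to 2165 in SS and SO libraries. Of the markers of adult females, the yolk protein gene Yp1 had 1751 to 2941 FPKM in OS and OO and 2054 to 2923 FPKM in SS and SO, and 14 of 18 male tissue genes were at 0 in every library. Against this, the accessory gland genes BG642312 and Acp63F were above 0 in 2 and 4 of the OS and OO libraries and in 3 and 4 of the SS and SO libraries, at up to 140 and 97.2 FPKM in OS and OO and up to 331 and 84.3 FPKM in SS and SO. The part of such RNA in the results was not tested.

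No gene passed the test for the medium of the previous generation. Of 5915 genes tested with limma on log2(FPKM + 1), 0 (0%) had an adjusted p under 0.05 and the smallest adjusted p was 0.998. An unadjusted p under 0.05 was reached by 248 genes (4.19%), against 295.8 that a 5% rate would give, and of these 139 were higher (2.35%) and 109 lower (1.84%) in OS and OO. The 6 and 6 libraries did not overlap for 9 genes (0.152%). The median difference over all genes was 0.04, and 55.1% of genes lay above 0. In the summed squares of the hybrid libraries the previous medium took 8.51%, the current medium 11.4%, their interaction 8.33% and differences between replicates 71.8%. Per degree of freedom, the previous medium stood at 0.948 times the replicates.

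Mainly in well expressed genes could the libraries bound a difference to within 2-fold. The 95% interval of a gene's difference had a median half-width of 0.77 on the log2 scale, and it lay wholly between -1 and 1 for 2835 genes (47.9%). Such an interval holds no change of more than 2-fold in FPKM + 1. By level, that was so for 2.99% of genes with a mean under 5 FPKM, 15.9% between 5 and 20, 57.4% between 20 and 100 and 86.5% above 100. The median half-width was 1.30 under 5 FPKM and 0.45 above 100, so the size of difference that these 12 libraries bound depends on the level of the gene. When all 36 adult libraries of hybrids and both species shared 1 estimate of the spread, 109 of 6420 genes were called (1.7%; 970 or 15.1% at unadjusted p under 0.05). The median residual SD was 0.60 in hybrids, 0.16 in D. simulans and 0.37 in D. sechellia, however, and 1 gene was called when each genotype had its own weight (0.0156%; 368 or 5.73% at unadjusted p under 0.05).

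The gene with the smallest p was fit, which was lower after octanoic acid in the previous generation. In D. melanogaster fit encodes a female-biased protein secreted by the fat body that is induced by a protein meal and reduces feeding. Its level was 4632, 2384 and 2296 FPKM in OS libraries, 2096, 3848 and 4072 in OO libraries, 11579, 9533 and 3412 in SS libraries and 10295, 10382 and 8927 in SO libraries. The groups overlapped through SS replicate 3 alone, which lay among the OS and OO libraries while the other 5 SS and SO libraries were all above them. Means were 3221 ± 1089 FPKM in OS and OO and 9021 ± 2890 in SS and SO (SD, n = 6 each). The difference was -1.46 ± 0.30 on the log2 scale (SE; 95% interval -2.12 to -0.80), with an unadjusted p of 0.000428 and an adjusted p of 0.998 by limma. It was -1.30 with standard current medium and -1.62 with octanoic acid, and the interaction had an unadjusted p of 0.606.

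Both allele columns of fit were lower in OS and OO. The D. simulans allele had 1023, 757 and 782 FPKM in OS, 479.7, 699.9 and 1079 in OO, 2165, 2245 and 1157 in SS and 1912, 2036 and 1842 in SO. These values did not overlap between OS and OO on one side and SS and SO on the other. In limma over 5268 genes of the D. simulans column the difference was -1.25 ± 0.21, with an unadjusted p of 2.64e-05 and an adjusted p of 0.139. Over 18 alternatives the adjusted p ran from 0.00811 to 0.674, and it was under 0.05 in only 3 of them. The cut at a mean of at least 20 FPKM, chosen after seeing the data, gave 0.00811. Leaving out SS replicate 3 gave 0.0215 and leaving out OO replicate 3 gave 0.0205. The D. sechellia allele differed by -1.52 ± 0.36 (unadjusted p = 0.0012). The D. simulans share of fit was 18.2% to 34.1% in OS and OO and 18.6% to 33.9% in SS and SO, and the allelic ratio differed by -0.27 (unadjusted p = 0.252). The 2 columns come from the same libraries and are not independent measurements.

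**Figure D1:**
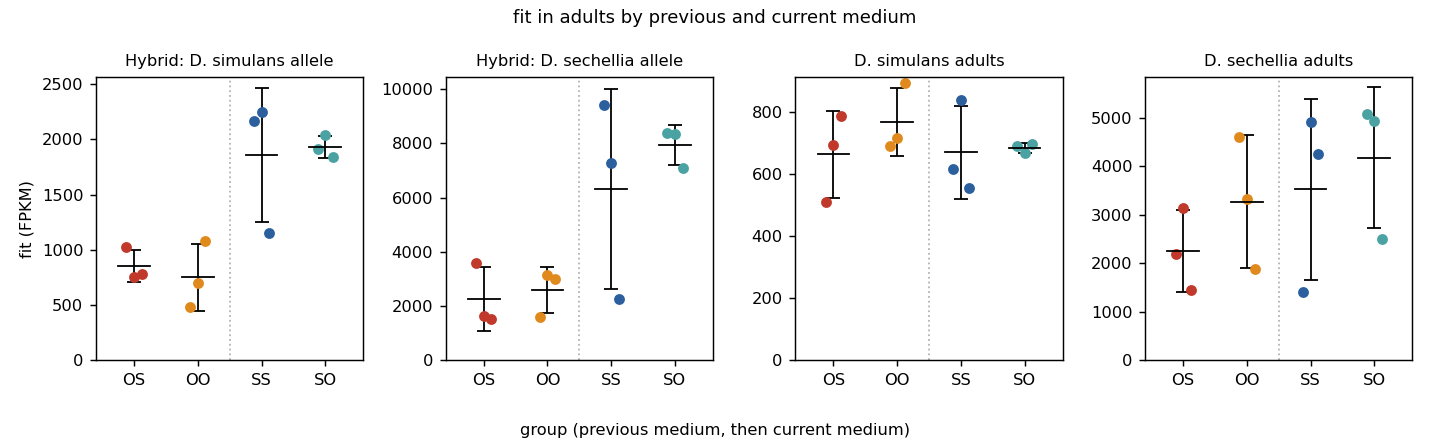
Expression of fit in FPKM (y axes, each from 0) in each library of hybrid adults, by allele, and of adults of both species, for the groups OS, OO, SS and SO (x axis; first letter previous medium, second letter current medium). Points are libraries, and bars give the mean and SD of 3. The OS and OO hybrids lie at 479.7 to 1079 FPKM for the D. simulans allele, below all SS and SO hybrids at 1157 to 2245, while the parental species show overlapping groups.

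In both parental species the values of fit overlapped between the groups. D. simulans adults had 511 to 892 FPKM in OS and OO and 555 to 838 FPKM in SS and SO, a difference of 0.07 ± 0.13. D. sechellia adults had 1455 to 4608 FPKM in OS and OO and 1408 to 5083 in SS and SO, a difference of -0.45 ± 0.36. The hybrid difference minus that of D. simulans was -1.53 (unadjusted p = 0.00986, adjusted p = 0.533) and minus that of D. sechellia -1.01 (unadjusted p = 0.111, adjusted p = 0.997), so neither was called by limma.

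The other named genes are the 10 with the smallest p in each direction among those with a gene symbol and a mean of at least 5 FPKM, with fit among them. None passed the test, and their values are a description. Cyp4e1, a cytochrome P450 gene, had 61.8, 120 and 180 FPKM in OS, 218, 228 and 255 in OO, 95.1, 93.4 and 82.6 in SS and 88.2, 57.6 and 70.1 in SO. Of the OS and OO libraries, 5 exceeded every SS and SO library, and OS replicate 1 did not. Its difference of 0.99 ± 0.24 (unadjusted p = 0.0012) came to 1.70 on octanoic acid and 0.29 on standard medium, with an unadjusted p of 0.0112 for the interaction. Npc2g, of the NPC2 family of sterol-binding proteins, had the same form, with 62.7, 144 and 210 FPKM (lowest, median, highest) in OS and OO, 35.4, 80.1 and 99.7 in SS and SO, and differences of 1.62 on octanoic acid and 0.17 on standard medium. Both genes were at their highest in OO libraries.

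Smyd4-3, of a family of SET-domain proteins, was the 1 named gene whose groups did not overlap, at 21.05, 26.0 and 33.2 FPKM in OS and OO and 11.9, 14.7 and 16.4 in SS and SO (0.83 ± 0.25, unadjusted p = 0.00635). CSN3, a subunit of the COP9 signalosome that acts on cullin ubiquitin ligases, had 72.8, 118 and 141 FPKM in OS and OO and 36.8, 67.4 and 119 in SS and SO (0.77 ± 0.23). Vps2, a subunit of the ESCRT-III membrane-sorting complex, had 21.5, 44.9 and 65.7 FPKM in OS and OO and 1.92, 22.8 and 32.3 in SS and SO (1.57 ± 0.50). The groups of CSN3 and Vps2 overlapped.

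Bug22, a protein of cilia and basal bodies, had 55.8, 96.7 and 142 FPKM in OS and OO and 10.0, 30.5 and 69.6 in SS and SO (1.499 ± 0.43). The C-type lectin gene lectin-37Da had 469, 518 and 1087 FPKM in OS and OO and 268, 330 and 597 in SS and SO (0.72 ± 0.24), the highest value being that of OO replicate 2. The gene elm had 39.1, 79.5 and 104 FPKM in OS and OO and 23.4, 32.2 and 69.7 in SS and SO (1.08 ± 0.26). In all 3 the groups overlapped. The homeodomain gene achi, which in D. melanogaster has a near-identical neighbour, vis, that may share its reads, differed by 1.53 ± 0.43. Urm1, a ubiquitin-like modifier, was listed at 0 in all SO libraries and had 12.5, 42.0 and 11.5 FPKM in OO. It had 13.6, 0 and 6.49 FPKM in OS and 4.93, 4.15 and 7.25 in SS, and was thus the 1 named gene of 20 whose sign differed between the current media, at 4.27 on octanoic acid and -0.40 on standard medium. The 42.0 FPKM in OO was all D. sechellia allele, which was at 0 in the other 11 libraries. Adults of D. sechellia had 49.3 to 102 FPKM of Urm1.

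On the lower side after fit came Lhr, a heterochromatin protein gene known for its part in the lethality of D. melanogaster and D. simulans hybrids. It had 3.37, 11.6 and 6.26 FPKM in OS, 17.0, 20.5 and 17.0 in OO, 34.1, 15.5 and 56.8 in SS and 27.4, 32.3 and 41.5 in SO. Only SS replicate 2 lay within the range of the OS and OO libraries. Its difference was -1.48 ± 0.37 (unadjusted p = 0.00176). SNRPG, a core protein of the spliceosomal Sm ring, had 303, 394 and 496 FPKM in OS and OO and 447, 569 and 599 in SS and SO, the smallest in size of the 20 differences at -0.44 ± 0.12. Ns1, a nucleolar GTPase of ribosome production, had 54.6, 90.1 and 112 FPKM in OS and OO and 103, 126 and 157 in SS and SO (-0.58 ± 0.16). Cp110, a centriole protein, had at most 4.24 FPKM in OS and OO and 3.75 to 19.0 in SS and SO (-1.87 ± 0.52).

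AnxB11, an annexin, had 0.558, 3.45 and 11.3 FPKM in OS and OO and 10.3, 12.2 and 26.4 in SS and SO (-1.82 ± 0.49, unadjusted p = 0.00306). PMP34, a carrier of the peroxisome membrane, had 11.2, 31.8 and 83.6 FPKM in OS and OO and 50.8, 67.4 and 84.7 in SS and SO (-1.03 ± 0.31). The gene alc, which encodes the beta subunit of the energy sensor AMPK, had 10.0, 31.7 and 48.3 FPKM in OS and OO and 41.0, 50.3 and 81.4 in SS and SO (-0.94 ± 0.29). In these 3 genes the 2 sides overlapped. RNASEK, which encodes a ribonuclease, had 77.4, 156 and 546 FPKM in OS and OO and 199, 498 and 782 in SS and SO (-1.31 ± 0.37). Roc1b, the RING subunit of a cullin ligase, was at 0 in 4 of 6 OS and OO libraries and in 1 SS or SO library (-2.16 ± 0.70), and it passed the filter on low values through the SS and SO libraries alone.

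**Figure D2:**
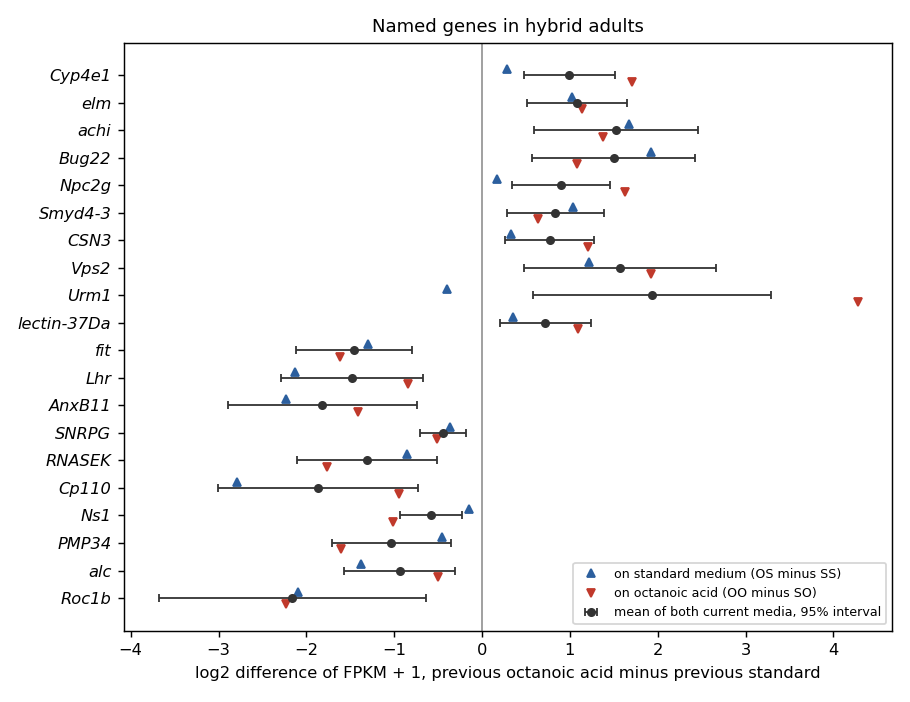
Log2 difference of FPKM + 1 between OS and OO and SS and SO hybrid adults (x axis) for the 20 named genes (y axis), with the 95% limma interval as a bar, and the difference within each current medium as triangles. The genes were taken for their small unadjusted p, none has an adjusted p under 0.998, and Urm1 is the gene with opposite signs on the 2 media.

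The genes whose 6 and 6 libraries did not overlap were looked at after their values were seen. Higher in OS and OO were 7 (0.118%), namely Smyd4-3, CG11835, CG15098, CG5973, CG8008, Rgk2 and trol, and lower were 2 (0.0338%), CG13594 and Pfdn4. Rgk2 reached the 1 FPKM of the filter in OS and OO libraries alone and CG13594 in SS and SO libraries alone. These 2 were thus tested only because of the side on which they are high. Of the 5915 genes, 515 (8.71%) reached it in fewer than 3 libraries of at least 1 side. Some of these passed the filter only with libraries of both sides counted together. CG5973 had 409, 531 and 564 FPKM in OS and OO and 249, 330.3 and 407 in SS and SO, so the 2 sides were separated by under 2 FPKM (0.61 ± 0.15). The most abundant was CG15098, at 1356 to 1604 FPKM in OS and OO and 1067 to 1294 in SS and SO (0.29 ± 0.11). The gene trol encodes perlecan, a proteoglycan of basement membranes, and had 36.2 to 49.6 FPKM in OS and OO and 23.1 to 35.1 in SS and SO (0.42 ± 0.22, unadjusted p = 0.075). Pfdn4, a prefoldin subunit, had 0 to 47.4 FPKM in OS and OO and 61.4 to 99.3 in SS and SO (-2.05 ± 0.74), with OO replicate 3 at 0.

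Set apart by allele, the previous medium again gave no call. Limma called 0 of 5268 genes (0%) in the D. simulans column, with 228 at unadjusted p under 0.05 (4.33%), and 0 of 5488 (0%) in the D. sechellia column, with 242 (4.41%). For the ratio of the 2 alleles it called 0 of 4915 (0%), with 229 (4.66%). The D. simulans column lay higher in OS and OO as a whole, with a median of 0.13 and 70.4% of genes above 0. Rescaling by median ratios brings such a median near 0 by design, and it gave 0.00 with 50.4% of genes above 0. That rescaling cannot tell a shift in scale from a broad difference in expression. The D. sechellia column had a median of 0.01 and 51.3% above 0. Between the 2 columns, 52.6% of 4915 genes differed in the same direction.

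Among genes measured in both allele columns, 199 had an unadjusted p under 0.05 by limma in the D. simulans column and 216 in the D. sechellia column. Of 4915 genes measured in both columns, 11 (0.224%) had an unadjusted p under 0.05 in both and the same direction, and 2 of them, fit and Cyp4e1, are among the 20 named genes. Cyp4e1 differed by 0.84 ± 0.18 in the D. simulans column and 1.02 ± 0.33 in the D. sechellia column. The other 9 were CG11835, CG15083, CG1648, CG2767, CG3788, CG5973, Gadd45, Tsp97E and GMF, and they were picked after their values were seen. The most abundant of them, CG1648, had 3765, 5168 and 6545 FPKM in OS and OO and 3315, 3794 and 4512 in SS and SO, and differed by 0.46 ± 0.15 and 0.39 ± 0.13 in the D. simulans and D. sechellia columns. Gadd45, a gene of the response to DNA damage and stress, had 44.6, 86.0 and 143 FPKM in OS and OO and 0.459, 27.6 and 97.1 in SS and SO. The 6 and 6 libraries did not overlap for 7 of the 4915 genes (0.142%) in the D. simulans column and for 8 (0.163%) in the D. sechellia column, and no gene was among both.

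In most of the other named genes the difference sat in the D. sechellia column. Of the 17 named genes measured in both columns, 17 had the larger difference in the D. sechellia column, which makes up most of the sum that chose them, and 16 had the same sign in both. Lhr differed by -2.40 ± 0.60 in the D. sechellia column and 0.44 ± 0.49 in the D. simulans column. The D. sechellia allele of Lhr had 0, 8.12 and 0 FPKM in OS, 15.5, 14.9 and 10.7 in OO, 32.5, 12.8 and 51.4 in SS and 24.0, 23.0 and 41.5 in SO. For AnxB11 the D. sechellia allele was at 0 in 5 of the OS and OO libraries and had 5.29 to 23.2 FPKM in SS and SO (-2.93 ± 0.61), while the D. simulans allele had 0.558 to 5.93 FPKM in OS and OO and 2.70 to 5.91 in SS and SO (-0.41 ± 0.33). For elm the D. sechellia allele was above 0 in 5 of 6 OS and OO libraries and in 1 of 6 SS and SO libraries (3.88 ± 1.09), with the D. simulans allele at 0.12 ± 0.17. The D. sechellia columns of AnxB11 and elm passed the filter through 1 side alone. Adults of D. sechellia had 629 to 1290 FPKM of elm, 21.3 to 33.8 of AnxB11 and 3.46 to 22.7 of Lhr. The D. sechellia column of elm in hybrids, at most 72.4 FPKM, thus lay far below that species, while that of Lhr did not. The cause was not tested. The smallest value above 0 in a D. sechellia column was 0.417 to 0.877 FPKM in OS and OO and 0.257 to 0.744 in SS and SO. In a D. simulans column it was 0.0447 to 0.0803 FPKM in OS and OO and 0.0366 to 0.0713 in SS and SO. Low values of the D. sechellia column are thus coarser. Whether zeros of the D. sechellia column follow its depth was not tested.

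**Figure D3:**
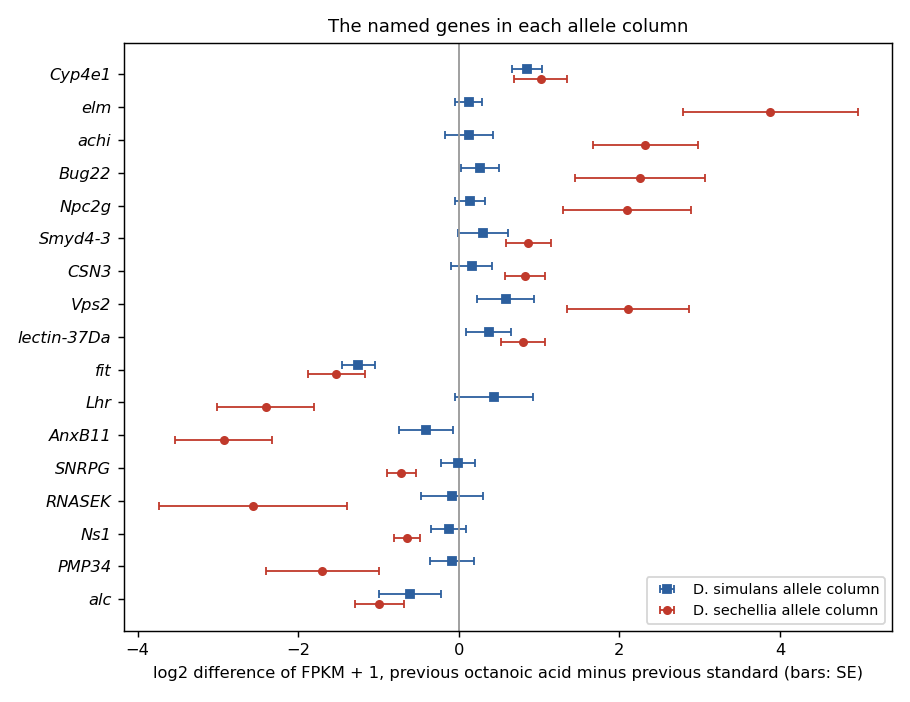
Log2 difference between OS and OO and SS and SO hybrid adults (x axis; bars are SE) in the D. simulans and the D. sechellia allele column, for the 17 named genes measured in both (y axis). For fit and Cyp4e1 the 2 alleles lie together, at -1.25 and -1.52 and at 0.84 and 1.02, while for elm, Lhr and AnxB11 the D. sechellia column differs by 2.40 or more in size and the D. simulans column by at most 0.44.

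Limma called no gene in either parental species. Within their own libraries it called 0 of 5545 genes (0%) in D. simulans, with 159 at unadjusted p under 0.05 (2.87%), and 0 of 6220 (0%) in D. sechellia, with 96 (1.54%). For the 20 named genes, chosen in hybrids, the previous medium gave differences of at most 0.58 in size in D. simulans, where 19 were tested and 7 had the hybrid sign, and of at most 0.45 in D. sechellia, where 12 of 20 had it. Tested as a difference of differences over 6420 genes, hybrids minus D. simulans gave 0 calls (0%) and 381 genes at unadjusted p under 0.05 (5.93%). Leaving out 1 hybrid library gave 1 to 11 calls for 10 of the 12 libraries, with 11 without OO replicate 3. Hybrids minus D. sechellia gave 1 call (0.0156%) and 278 (4.33%). AnxB11 had the smallest adjusted p of the named genes against D. simulans, with -1.75 and 0.114, and against D. sechellia, with -1.89 and 0.152.

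The 1 called gene was CG3618, whose hybrid mean is under the 5 FPKM of the naming rule. It had 3.55, 0.295 and 0 FPKM in OS, 0, 1.21 and 0.800 in OO, 5.36, 4.05 and 3.45 in SS and 6.82, 6.23 and 15.2 in SO. Only OS replicate 1 lay within the range of the SS and SO libraries, and among hybrids alone the gene passed the filter through SS and SO. The difference was -2.08 ± 0.48 in hybrids and 0.33 ± 0.18 in D. sechellia, and the hybrid difference minus that of D. sechellia was -2.41 (limma adjusted p = 0.0182). The call ended with median-ratio rescaling (adjusted p = 0.0517) and with the replicate number as a block (0.0903), and no gene was called without SO replicate 3 or without OO replicate 1. In the hybrids the D. sechellia allele differed by -2.32 ± 0.50 and the D. simulans allele by -0.07 ± 0.35.

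**Figure D4:**
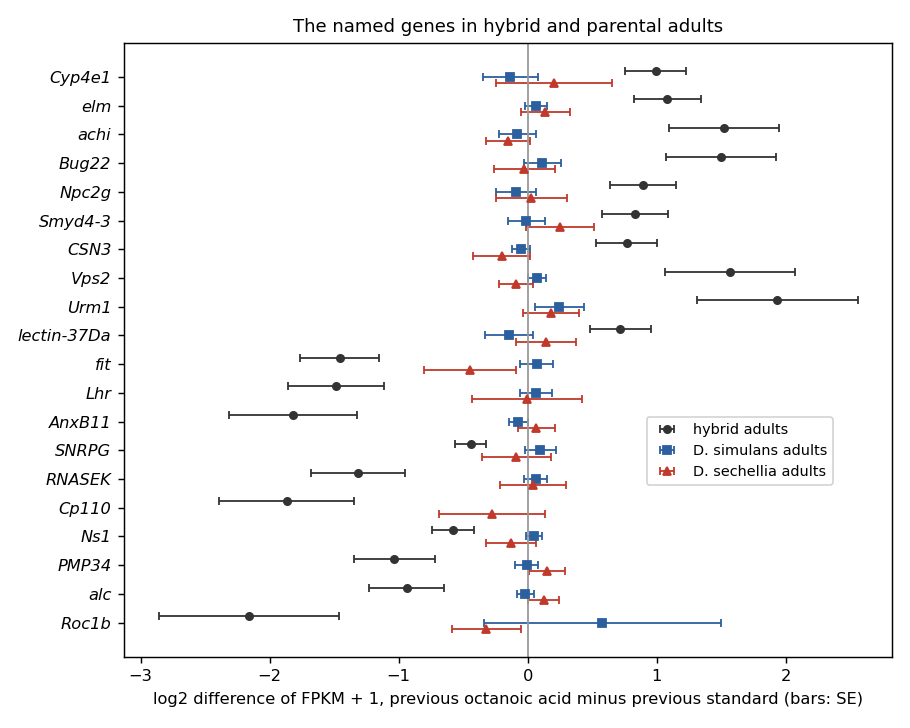
Log2 difference of FPKM + 1, octanoic acid minus standard medium in the previous generation (x axis; bars are SE), for the 20 named genes (y axis) in hybrid, D. simulans and D. sechellia adults, each from its own 12 libraries. The genes were chosen for their hybrid values, and the parental values all lie between -0.45 and 0.58.

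On neither current medium did a gene pass the test for the previous one. Among flies on standard medium (OS against SS), limma called 0 of 5915 genes (0%), with 168 at unadjusted p under 0.05 (2.84%). Among flies on octanoic acid (OO against SO) it called 0 (0%), with 323 (5.46%). The interaction had 0 calls (0%) and 239 genes at unadjusted p under 0.05 (4.04%), and the current medium itself 0 calls (0%) and 660 (11.2%). The genes tobi and emc were picked from the smallest interaction p after their values were seen. The alpha-glucosidase gene tobi, named as a target of insulin signalling in D. melanogaster, had 323, 338 and 503 FPKM in OS, 716, 544 and 365 in OO, 753, 463 and 529.5 in SS and 128, 216 and 227 in SO. All OO values were above all SO values. The difference was 1.496 on octanoic acid and -0.58 on standard medium (interaction 2.08 ± 0.44, unadjusted p = 0.000515, adjusted p = 0.905). The gene emc, an inhibitor of helix-loop-helix transcription factors, went the other way, with -0.91 on octanoic acid and 1.08 on standard medium (-1.99 ± 0.48, adjusted p = 0.999).

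No list member passed the test. Over 36 lists of pathways, families and tissue markers limma called 0 members, and among the 33 lists with at least 5 tested members the medians ran from -0.20 to 0.30, beside 0.04 for all 5915 genes. Of 592 listed genes tested, each taken once, 53.4% lay above 0 and 21 (3.55%) had an unadjusted p under 0.05, beside 55.1% and 4.19% of all genes, and the members named from the lists with such a p are read against that. Genes of hormone signalling had a median of 0.30, the highest of the 33, with 14 of 19 above 0. With a pseudocount of 0.1 it was 0.34, below the 0.58 of chemosensory genes, whose median was 0.21 with a pseudocount of 1. The eggshell genes had 0.26 with 8 of 12 above 0. In the eggshell list the chorion genes Cp7Fc (0.66 ± 0.27) and Cp7Fa (0.82 ± 0.37) had unadjusted p of 0.0326 and 0.0492. Below 0 were the vitelline membrane genes Vm26Ab (-0.19 ± 0.15), psd (-0.17 ± 0.20), Vml (-0.07 ± 0.18) and Vm26Aa (-0.06 ± 0.16), while Vm26Ac lay above (0.18 ± 0.18). In the hormone list the neuropeptide gene sNPF, which promotes feeding in D. melanogaster, had 0.98 ± 0.45, and Lst, a decretin that restrains insulin release, 0.89 ± 0.39. Jhe, which breaks down juvenile hormone, had -0.88 ± 0.39, at 4.42 to 8.77 FPKM in OS and OO and 4.12 to 25.7 in SS and SO. These members overlapped between the groups.

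Among the 33 lists with at least 5 tested members, lipases and antimicrobial peptides had the lowest medians, and lipases came to -0.12 with a pseudocount of 0.1. Of 11 lipase genes 8 lay below 0, with a median of -0.20, and CG6283 (-0.65 ± 0.26) and CG6271 (-1.21 ± 0.49) had unadjusted p of 0.0256 and 0.0294. Of 14 antimicrobial genes 10 lay below 0, with a median of -0.19 that came to -0.37 on standard medium and 0.27 on octanoic acid. OO replicate 1 had the highest value of all libraries for AttA (367 FPKM), AttB, AttC, DptB (293), Drs (994), IM2 (79286) and IM4 (1017). For the other tested members, such as Dro and Mtk, the highest value was in another library. Drosocin, Dro, had 690, 380 and 1838 FPKM in OS, 42.2, 0 and 250.5 in OO, 566, 909 and 1509 in SS and 2315, 546 and 5008 in SO (-3.31 ± 1.08, unadjusted p = 0.00973). Its 3 lowest values were the OO libraries. Defensin, Def, had 116 to 321 FPKM in OS and OO and 85.5 to 211 in SS and SO (0.62 ± 0.26). Of 13 genes of the digestive protease list 10 lay below 0 (median -0.10), and lambdaTry had -0.35 ± 0.14 (unadjusted p = 0.0286 by limma). The list also holds Mur29B, a gene named as mucin related (0.25 ± 0.40).

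Genes of fatty acid oxidation, lipid synthesis, cytochrome P450, glutathione S-transferase and heat shock lists had medians between -0.01 and 0.10. Of 23 genes of fatty acid oxidation 13 lay above 0 (10 when rescaled by median ratios), with a median of 0.03 (-0.01 rescaled) and a range of -0.32 to 0.17. Of 12 genes of the lipid synthesis list 11 lay above 0, with a median of 0.10, among them ACC (0.11 ± 0.17) and FASN1 (0.09 ± 0.19). The member below 0 was EloC (-0.30 ± 0.74), which encodes elongin C and is no lipid synthesis gene. Of 41 genes of the cytochrome P450 list 24 lay above 0 (median 0.05). They include Cyp1 (0.006 ± 0.17), which encodes a cyclophilin and no P450. Cyp303a1 passed the filter only through OS and OO libraries, with 0 to 14.3 FPKM in OS and OO and 0 to 0.418 FPKM in SS and SO. Of 14 glutathione S-transferases 9 lay above 0 (median 0.10), and of 6 heat shock genes 3 (median -0.01). Of 28 genes linked to noni or octanoic acid in D. sechellia, 8 passed the filter on low values and 18 were at 0 in all libraries. The 8 ran from -0.87 for Osi8 to 0.95 for Cyp4d8, with 4 on either side of 0. Osi8 had 12.5 FPKM in SO replicate 3 and was at 0 in 4 of the 6 OS and OO libraries. It was also at 0 in SS replicate 1, SS replicate 2 and SO replicate 2. Cyp4d8 had 5.13 to 22.9 FPKM in OS and OO and 2.04 to 10.5 in SS and SO (± 0.45, unadjusted p = 0.0577).

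**Figure D5:**
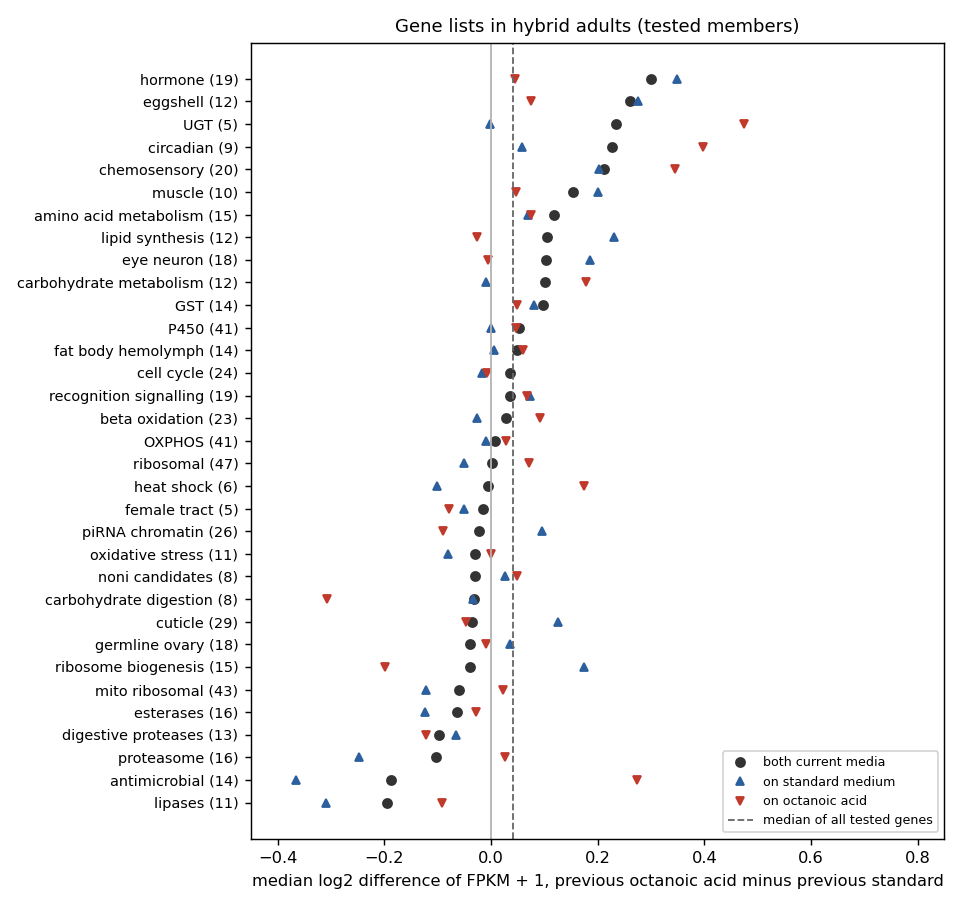
Median log2 difference of FPKM + 1, octanoic acid minus standard medium in the previous generation (x axis), of the tested members of 33 gene lists (y axis, number of members in brackets), over both current media and within each. The dashed line is the median of all tested genes, 0.04, and the medians over both media run from -0.20 for lipases to 0.30 for hormone genes.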

How the data were processed

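The authors deposited FPKM for 7836 genes in 96 columns, of which 24 are the allele columns of the 12 hybrid adult libraries. Per the submitters' processing notes, FastQC, Bowtie2 and Cufflinks were used. Tool versions, genome builds and the sorting of hybrid reads by allele were not given in the sources used here. Depth is unknown in absolute terms. Allele columns were summed per library. A gene had to reach 1 FPKM in 3 or more libraries and was then tested on log2(FPKM + 1), whose differences understate changes of low genes, with limma 3.58.1 in R 4.3.3. The model had 1 mean for each of the 4 groups and moderated variances with a trend, and the previous medium was averaged over both current media. Genes are called at an adjusted p (Benjamini-Hochberg, over all genes of a comparison) under 0.05. Every p is limma's. Hybrids were compared with the parental species in 1 fit of 36 adult libraries, weighted by genotype. The method was tested on simulated data.

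The members and gene lists were chosen with earlier results of these data known. With fewer than 10 calls in a direction, the 10 genes of smallest unadjusted p that averaged 5 FPKM or more and had a symbol that is no CG number were named as values. Lists are described by counts and medians. Of the 7836 names, 0 matched the reference gene table, so positions and sequences are not given. Alternatives were rescaling by median ratios over 4816 genes, no filter, a pseudocount of 0.1, no trend, a replicate block, allele columns scaled to equal totals, the current medium left out of the model, 36 libraries with 1 spread, no weights, and each library left out. Library weights, weights by genotype for the hybrid effect and a mean of at least 20 FPKM were chosen after seeing the data. Figures were drawn in matplotlib 3.10.9 under Python 3.11.15.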

Additional observations from a re-analysis of the deposited data

Results flagged for a closer look

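In 68 groups of 6 libraries examined, 7 had a library whose gap to its nearest neighbour, as a share of the group's range, exceeded the 95% critical value of Dixon's test, and chance alone flags about 1 group in 20. On the log2 scale these were OO replicate 1 for achi (0.658), OO replicate 2 for lectin-37Da (0.774) and OO replicate 3 for Pfdn4 (0.858) among OS and OO libraries. Among SS and SO libraries they were SS replicate 3 for fit (0.787), SS replicate 2 for elm (0.65) and SS replicate 1 for trol (0.637). SS replicate 2 also had fewer genes at 0 in both alleles, 1900 beside 2067 to 2165 in the other SS and SO libraries (0.63). The difference between hybrids and D. sechellia in the effect of the previous medium on CG3618 was -2.41 (adjusted p = 0.0182 by limma).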

How the results depend on the processing

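With limma, the count of 0 genes for the previous medium in hybrid adults also came from median-ratio rescaling, no filter, a pseudocount of 0.1, no trend, scaled allele columns, the current medium left out, library weights and a mean of at least 20 FPKM. With all 36 adult libraries and 1 spread it was 109, and 88 on standard medium, 178 on octanoic acid and 95 for the interaction. With weights by genotype it was 1, CG3618. Leaving out each library gave 0 to 1 call for the previous medium and for it on standard medium (CG42371 without OS replicate 2), 0 to 1 on octanoic acid (Fibp without SO replicate 3), 0 to 0 for the interaction and for the current medium, 0 to 2 for the D. simulans allele (CG30033 and pen-2 without SS replicate 2, Arv1 without OO replicate 1, fit without SS replicate 3 or OO replicate 3), 0 to 3 for the D. sechellia allele (CG12012, CG13516 and Vps2 without SO replicate 1, Sdhaf3 without SS replicate 1, Fibp without SO replicate 3, Dro without OO replicate 3, CG11151 and CG42371 without OS replicate 2), 0 to 1 for the allelic ratio (CG11151 without OS replicate 2), 0 to 11 for hybrids minus D. simulans (11 without OO replicate 3) and 0 to 5 for hybrids minus D. sechellia (5 without OO replicate 3). The D. simulans allele had 1 call, fit, among 1239 genes with a mean of at least 20 FPKM. Hybrids minus D. sechellia had 0 calls with rescaling, 2 with no filter, 2 with a pseudocount of 0.1, 2 without the trend and 3 without weights. Apart from the changes of scale, filter, samples or genes themselves, the cause was not tested. None of the 29 genes examined changed sign, but they were chosen for their differences in these same libraries, so a change of sign was unlikely from the start. Of 36 list medians, 4 changed sign with rescaling.

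The replicate numbers did not pair the libraries: 18 correlations between deviations of same-numbered libraries ran from -0.111 to 0.0599. With the replicate block the previous medium had 0 calls, and hybrids minus D. sechellia had 0.

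The main limits are the replicate spread, which leaves intervals with a median half-width of 0.77 on the log2 scale, and the unknown read depth behind each FPKM, above all in the D. sechellia column, where 2679 to 3256 genes in OS and OO libraries and 2636 to 3118 in SS and SO libraries are listed at 0.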
